A study of Mus musculus with 2 samples.

Results

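The 8 genes described here encode the 2 diuretic-sensitive salt cotransporters of the nephron and the signalling chain that sets their activity. They were chosen by name: Slc12a1, Slc12a3, Wnk1, Wnk4, Stk39, Oxsr1, Klhl3 and Cul3, which are 8 of the 21938 protein-coding genes of GENCODE M21 on the 21 chromosomes of mm10. For each gene the window was the gene body with 20 kb on each side. The assay was DNase-seq. The nuclease DNase I cuts DNA that is free of nucleosomes, and sequencing the cut ends shows which stretches are accessible. The tissue was kidney of female B6CASTF1/J mice, the hybrid of C57BL/6J and CAST/EiJ, at an age of 36 days. There was 1 group with n = 2 libraries, biological replicates 1 and 2, with no treatment, second tissue or control, so all values below are descriptions and no test between groups was possible. The females have separate numbers in the labels but share 1 donor entry, and nothing else says whether the spread between the libraries is biological or technical.

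Sodium chloride is taken up in the thick ascending limb by NKCC2, the product of Slc12a1 and target of loop diuretics, and in the distal convoluted tubule by NCC, the product of Slc12a3 and target of thiazides. The kinases WNK1 and WNK4 phosphorylate the kinases SPAK (Stk39) and OSR1 (Oxsr1), which in turn phosphorylate and activate the cotransporters. KLHL3 is the adaptor that brings WNK kinases to the ubiquitin ligase scaffold CUL3 for degradation, and mutations in WNK1, WNK4, KLHL3 or CUL3 cause familial hyperkalaemic hypertension in humans. In kidney tissue, which mixes cell types, fewer cells of a type and less accessibility per cell cannot be told apart. The cotransporters are each made chiefly in 1 nephron segment.

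Replicate 1 held 124504 peaks and 375848 footprints, and replicate 2 held 68056 peaks and 223827 footprints. A peak is an accessible stretch with a height given by the authors on a scale that is not stated, and a footprint is a short protected stretch, which can lie inside or outside a peak. Overlapping peaks of the libraries formed 65134 shared regions, in which the height of replicate 2 was lower than that of replicate 1 by a median log2 ratio of -0.61. The number of reads behind each library is unknown, so no counting interval can be set on a height. Of the kidney cell type markers listed, 19 of 25 had a peak in both libraries at most 1 kb from an annotated start. The share over all protein-coding genes was 60.7%. Among podocyte and among intercalated cell markers 1 of 3 had such a peak, and in each other kidney list at least 3 genes did. Of the markers of immune, liver, neuron, muscle and adrenal cells, 3 of 15 did, namely Apoa2, Snap25 and Star, whose part in the values below was not tested. Of the genes listed for the distal convoluted tubule, Pvalb had no such peak, and the others were Trpm6 (1.03 and 0.632), Calb1 (1.48 and 0.581) and Emx1 (5.09 and 3.34), giving the height in replicate 1 before that in replicate 2. Of the thick ascending limb genes Umod stood at 5.39 and 4.38, Egf at 9.65 and 5.55 and Kcnj1 at 3.47 and 4.58, and Cldn16 had none.

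The sequences below are shown because they carry the contrasts between the genes: the low 5' end of Slc12a3 beside 2 of its tall intronic sites, the tall 5' end of Wnk1 beside its internal start, both peaks at the 5' end of Oxsr1, the intronic site of Klhl3 and the 5' end of Cul3. Each is a stretch of 200 bases of the GRCm38 (mm10) reference, read 5' to 3' on the strand of the gene, and capitals mark bases covered by a footprint in both libraries.
Slc12a3 5' end, chr8:94328991-94329190, plus strand: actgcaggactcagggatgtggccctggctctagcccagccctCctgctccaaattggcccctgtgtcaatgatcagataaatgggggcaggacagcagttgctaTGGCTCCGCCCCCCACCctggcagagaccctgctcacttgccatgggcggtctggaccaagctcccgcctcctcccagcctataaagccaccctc
Slc12a3 intron 24 at +34.3 kb, chr8:94363390-94363589, plus strand: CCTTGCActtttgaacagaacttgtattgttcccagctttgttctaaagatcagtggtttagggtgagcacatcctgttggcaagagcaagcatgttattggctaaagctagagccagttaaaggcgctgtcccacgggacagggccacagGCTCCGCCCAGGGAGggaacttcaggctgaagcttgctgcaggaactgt
Slc12a3 intron 24 at +34.9 kb, chr8:94364040-94364239, plus strand: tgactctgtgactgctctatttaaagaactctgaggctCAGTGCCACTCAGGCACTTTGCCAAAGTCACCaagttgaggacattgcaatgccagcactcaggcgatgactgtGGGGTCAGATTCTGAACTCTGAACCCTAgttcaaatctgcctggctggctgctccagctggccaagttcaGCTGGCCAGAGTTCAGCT
Wnk1 5' end, chr6:120038700-120038899, minus strand: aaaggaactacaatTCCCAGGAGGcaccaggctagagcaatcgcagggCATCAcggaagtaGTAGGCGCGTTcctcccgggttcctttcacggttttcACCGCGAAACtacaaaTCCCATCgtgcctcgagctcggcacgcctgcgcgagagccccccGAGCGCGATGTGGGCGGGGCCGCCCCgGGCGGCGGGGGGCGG
Wnk1 internal start of Wnk1-201, chr6:119981419-119981618, minus strand: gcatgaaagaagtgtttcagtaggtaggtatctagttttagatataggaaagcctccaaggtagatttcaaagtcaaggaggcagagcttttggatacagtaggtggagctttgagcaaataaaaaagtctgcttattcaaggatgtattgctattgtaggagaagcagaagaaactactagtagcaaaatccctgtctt
Oxsr1 upstream peak, chr9:119322750-119322949, minus strand: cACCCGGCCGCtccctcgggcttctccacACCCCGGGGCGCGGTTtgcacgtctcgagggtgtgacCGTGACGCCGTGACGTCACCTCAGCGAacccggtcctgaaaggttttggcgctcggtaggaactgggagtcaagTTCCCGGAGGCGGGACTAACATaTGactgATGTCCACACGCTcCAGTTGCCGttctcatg
Oxsr1 start peak, chr9:119322398-119322597, minus strand: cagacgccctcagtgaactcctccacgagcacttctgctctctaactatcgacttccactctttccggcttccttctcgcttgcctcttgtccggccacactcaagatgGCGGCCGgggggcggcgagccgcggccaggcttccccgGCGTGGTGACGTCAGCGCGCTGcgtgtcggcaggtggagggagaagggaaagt
Klhl3 intron 4, chr13:58067770-58067969, minus strand: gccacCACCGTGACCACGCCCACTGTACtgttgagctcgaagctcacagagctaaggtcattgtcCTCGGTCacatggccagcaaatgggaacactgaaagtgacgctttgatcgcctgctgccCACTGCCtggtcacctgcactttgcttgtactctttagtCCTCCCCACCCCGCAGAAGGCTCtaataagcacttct
Cul3 5' end, chr1:80340910-80341109, minus strand: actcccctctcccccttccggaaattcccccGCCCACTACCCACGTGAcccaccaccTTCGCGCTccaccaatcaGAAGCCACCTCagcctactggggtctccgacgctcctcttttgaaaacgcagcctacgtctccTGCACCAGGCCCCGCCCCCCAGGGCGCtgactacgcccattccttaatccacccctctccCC

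The windows of the 8 genes held 114 peaks of replicate 1 and 74 of replicate 2, which formed 69 shared regions. A peak lay within 1 kb of the outermost 5' start in both libraries in 7 of the 8 genes, beside 55.9% of all protein-coding genes. Counting any annotated start, it was again 7 of 8, beside 60.7% of all genes, and Klhl3 was the exception by both counts. Of the 69 shared regions 11 lay at a 5' end of the members, 3 at internal starts, 14 at starts of neighbouring genes and 3 between 500 bp and 1 kb from an internal start. The other 38 (55.1%) were distal, over 1 kb from every annotated start, beside 63.6% of all shared regions. The height was greater in replicate 1 in 65 of the 69, and the median log2 ratio of replicate 2 to replicate 1 was -0.53 (SD 0.37 over regions). That lay inside the interquartile range over all shared regions, which ran from -0.90 to -0.33. As both quartiles are negative, replicate 1 was the higher in most shared regions of the genome too. Both the count of 65 and the sign of the median depend on the authors' scale. With heights divided by the median of each library's shared regions, the median log2 ratio turned to 0.21. The divisor matters too, since the median over all stricter peaks was 1.33 in replicate 1 and 1.46 in replicate 2. Dividing by those would leave the ratio negative.

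**Figure D1:**
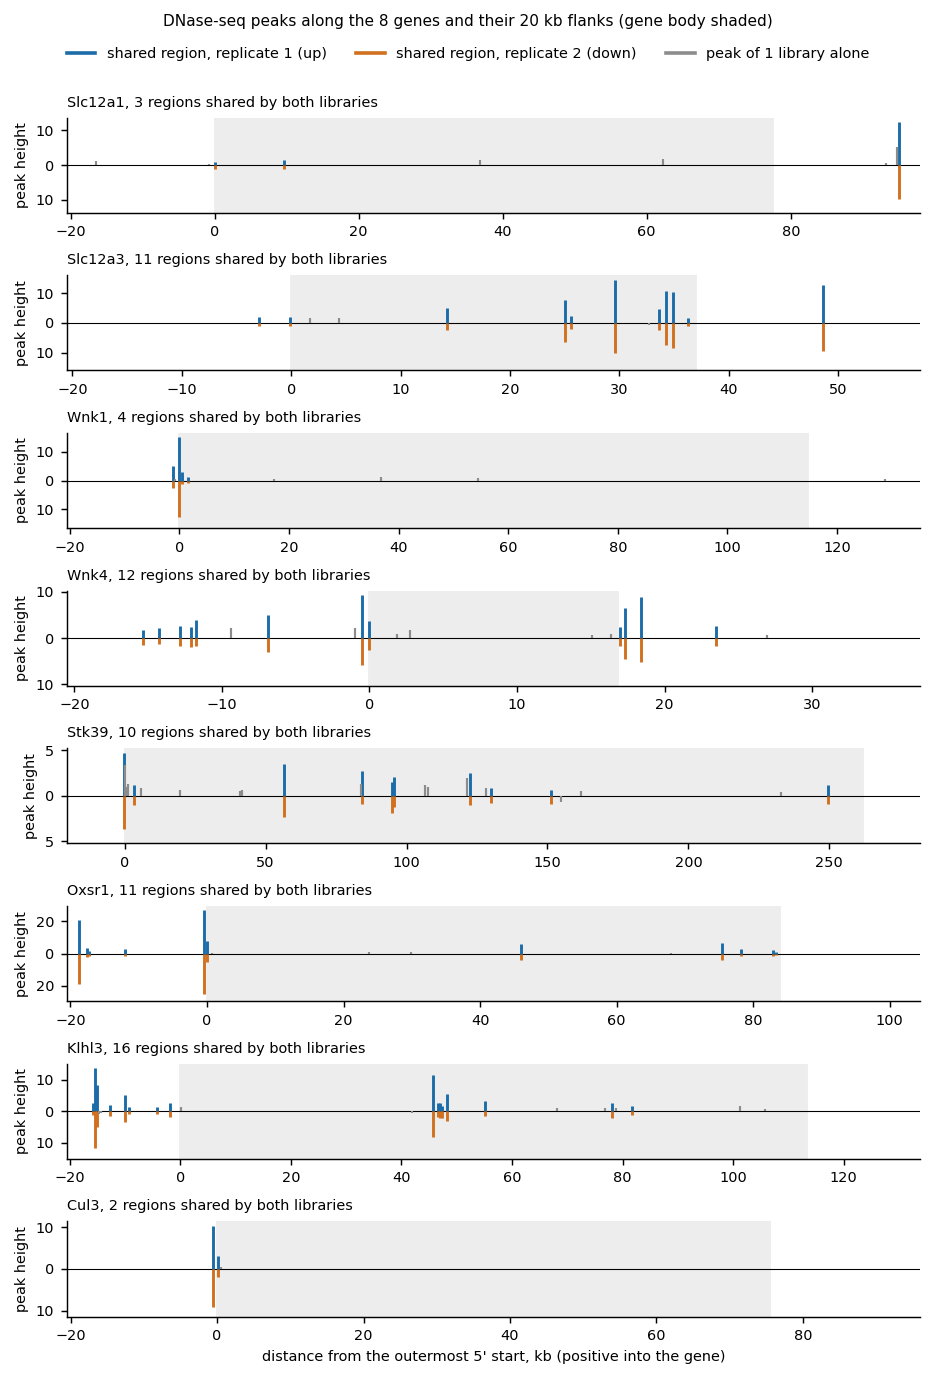
Peak heights (vertical axis, authors' scale, replicate 1 upward and replicate 2 downward, each panel with its own range) against the distance in kb from the outermost 5' start of each gene, with the gene body shaded and peaks of 1 library alone in grey. Slc12a3 and Klhl3 carry tall regions inside the gene body, while those of Wnk1 and Cul3 crowd at the 5' end.

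Slc12a1, the gene of NKCC2, had a low 5' end. The peak there, chr2:125152501-125152720 in the first exon, reached 0.789 in replicate 1 and 1.12 in replicate 2. Those heights were above 27.7% and 36.2% of the peaks of the same library. On the authors' scale replicate 2 was the higher of the libraries there, as in 4 of the 69 regions, a count that depends on that scale. Among the 12270 genes with a 5' peak in both libraries, the quartiles of the 5' height were 4.18 and 14.2 in replicate 1 and 2.47 and 10.3 in replicate 2, so Slc12a1 stood below the lower quartile in each. The footprints there numbered 3 and 5 and none matched between libraries. The other shared region of the gene body lay in intron 4 at +9.6 kb (chr2:125162001-125162259), with 1.48 in replicate 1 and 1.21 in replicate 2. Its remaining shared region, at +95.1 kb downstream, reached 12.4 and 9.65 and overlapped the start of Dut, the gene of dUTPase. Replicate 1 alone had peaks in intron 14 at +36.9 kb (height 1.38) and in intron 21 at +62.3 kb (1.67). At the former, replicate 2 had a height of 0.540 in its wider peak set, and at the latter it had no peak in either set.

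Slc12a3, the gene of NCC, combined a low 5' end with tall regions in the 3' part of the gene. At the 5' end (chr8:94328962-94329220, just upstream of the start) the height was 1.84 in replicate 1 and 1.19 in replicate 2, above 62.6% and 39.6% of the peaks of each library. Replicate 1 held 3 footprints there and replicate 2 held 4, of which 1 matched. Intron 24 of the main transcript held 5 of the 7 distal regions of its window. The tallest, at +29.6 kb (chr8:94358701-94358920), reached 14.5 in replicate 1 and 10.0 in replicate 2, above 97.5% and 95.0% of peaks. All 220 bases of it lie in the annotated UTR of the shorter coding transcripts Slc12a3-202 or Slc12a3-205. The site at +34.3 kb (chr8:94363321-94363640) reached 10.7 and 7.40. Its neighbour at +34.9 kb (chr8:94363981-94364280) reached 10.5 and 8.30. Each of these 3 sites was higher than the 5' end of the gene in both libraries, and each held 3 matched footprints. A site in intron 13 at +14.2 kb was lower, with 5.08 and 2.40. Downstream, at +48.6 kb, a region of 12.7 and 9.47 overlapped the start of the annotated gene Gm15889.

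The internal starts of Slc12a3 number 4, and 1 of them had a peak within 500 bp in both libraries. It belongs to Slc12a3-203, annotated as a retained intron, at +25.8 kb, and its peak (chr8:94354641-94354937) reached 2.26 and 2.05. A taller region in intron 21 at +25.0 kb (chr8:94354061-94354420) reached 7.52 in replicate 1 and 6.54 in replicate 2, and lay 626 bp from that same start. With all starts pooled, the promoter height of Slc12a3 would therefore read 7.52 and 6.54, where the 5' end gave 1.84 and 1.19. The 3 other internal starts, of Slc12a3-207, Slc12a3-206 and the coding Slc12a3-202, had no peak within 500 bp in either library. The nearest peaks to them stood 2275, 1608 and 1374 bp away in replicate 1.

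**Figure D2:**
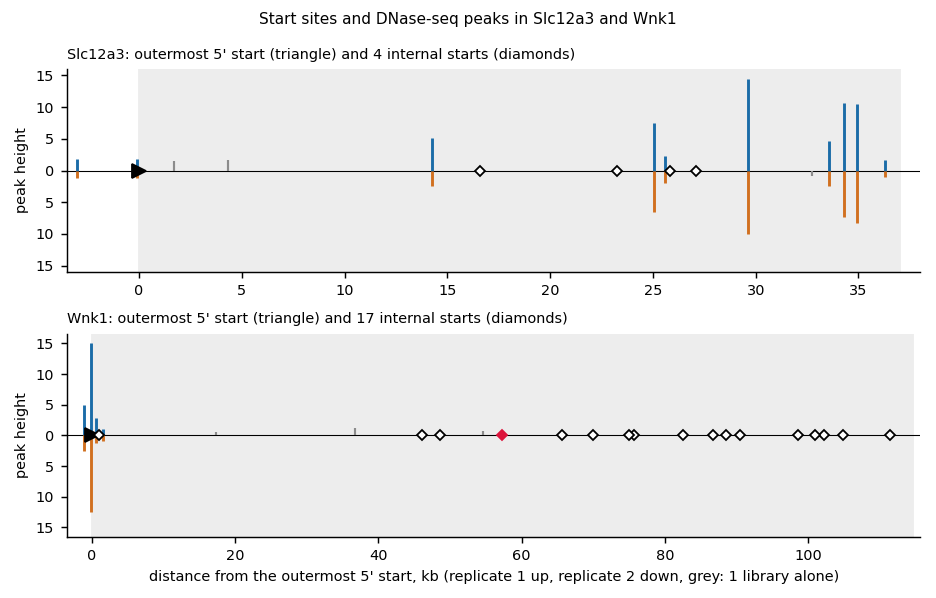
Peak heights (vertical axis, authors' scale, replicate 1 upward, replicate 2 downward, grey for 1 library alone) against kb from the outermost 5' start, which is the triangle, with internal starts as diamonds and Wnk1-201 in red. In Slc12a3 the 5' end stands at 1.84 and 1.19 and the tallest intronic region at 14.5 and 10.0, while in Wnk1 the tall regions stay within 1.6 kb of the 5' start.

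Wnk1, the kinase at the head of the chain, showed the opposite layout. Its 5' end (chr6:120038661-120038920) reached 15.0 in replicate 1 and 12.5 in replicate 2, above 97.7% and 96.6% of peaks. The footprints there numbered 7 and 6, of which 5 matched. A further region lay in the first exon at +0.5 kb with 2.81 and 1.32. The only distal region of the window was just upstream at -1.18 kb, with 4.96 and 2.49. The fourth shared region, at +1.5 kb, reached 1.09 and 0.947 and lay 339 bp from the start shared by the coding transcripts Wnk1-204 and Wnk1-224. No shared region was found in the rest of the gene body. Over the whole window Wnk1 had 2.59 shared regions per 100 kb, more than 37.0% of all genes.

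Of the 17 internal starts of Wnk1 the other 16 had no peak of the stricter set within 500 bp in either library. Over all 8 genes 3 of 32 internal starts had one in both libraries, beside 12.5% of the 29387 internal starts of all protein-coding genes. The third was in Stk39, at +248.9 kb, with heights of 1.22 and 0.907. One Wnk1 start is of particular interest in kidney, because the organ is known to make a short WNK1 form without a kinase domain from a start inside the gene, chiefly in the distal convoluted tubule. The transcript with that layout is Wnk1-201, annotated as a processed transcript, which begins at chr6:119981448 in intron 4, +57.2 kb from the 5' start. Its first exon of 331 bases overlaps no exon of the main transcript and joins exon 5. In replicate 1 the stricter set had no peak there, and the nearest, of height 0.752, stood 2531 bp away. The wider set of replicate 1 did have a peak over the start, at chr6:119981381-119981579, of height 0.436, with a lowest false discovery rate of 0.00193 and 1 footprint. In replicate 2 no interval below a false discovery rate of 0.05, no footprint and no peak of either set touched the 500 bp on either side, and the nearest peak stood 55.6 kb away. At the depth of these libraries, accessibility at that start was thus seen in replicate 1 alone, at 0.436 against 15.0 at the 5' end.

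Wnk4 had its 5' accessibility split over a pair of peaks. The taller, at -0.54 kb (chr11:101259921-101260140), reached 9.36 in replicate 1 and 5.85 in replicate 2. The one over the start (chr11:101260381-101260680) reached 3.76 and 2.52. Matched footprints numbered 4 in the former and 1 in the latter. Wnk4 had the densest window of the 8 genes, with 12 shared regions or 21.1 per 100 kb, more than 97.5% of genes. Only 1 of the 12 overlapped the gene of 16.8 kb, and 6 lay at starts of its neighbours. Those neighbours were Ramp2, Vps25, Coa3 and Cntd1, and the tallest of their regions, at the start of Cntd1, reached 9.00 and 5.07. The distal regions were low: 3.83 and 1.62 at -11.8 kb, 2.58 and 1.77 at +23.5 kb, and 2.36 and 1.94 at -12.1 kb. Neither of the 2 internal starts of Wnk4 had a peak in both libraries.

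**Figure D3:**
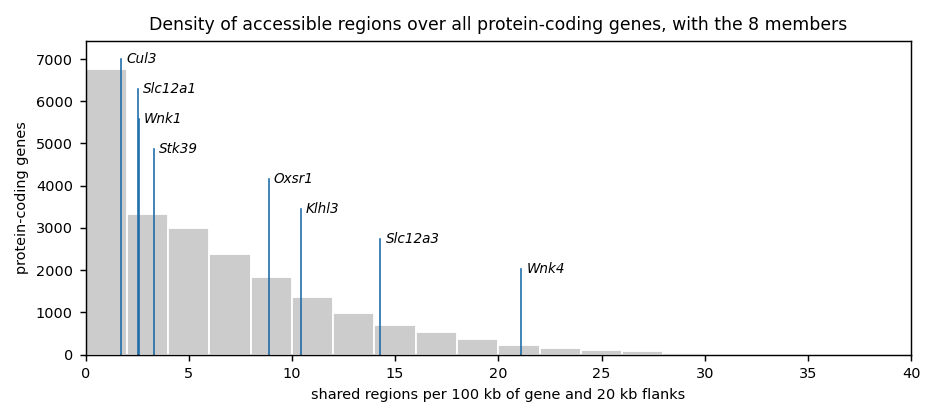
Number of protein-coding genes (vertical axis) by the shared regions per 100 kb of gene and 20 kb flanks (horizontal axis), with the 8 members as lines. Cul3 lies lowest at 1.73 and Wnk4 highest at 21.1, with the median of all genes at 4.50; 5 genes at 40 or more are not drawn.

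Stk39, the gene of SPAK, is the longest of the set at 261.8 kb and its regions were low and spread out. The 5' end (chr2:68472221-68472560) reached 4.75 in replicate 1 and 3.60 in replicate 2, with 3 matched footprints. A peak of 3.39 at +0.2 kb in the first exon was seen in replicate 1 alone. The 8 distal regions all lay in introns. The tallest, in intron 1 at +56.3 kb (chr2:68415841-68416020), reached 3.49 and 2.32. In intron 5 at +84.3 kb the heights were 2.70 and 0.907, and in intron 10 at +122.6 kb they were 2.56 and 1.02. The latter pair showed the lowest ratios of replicate 2 to replicate 1 of the whole set, 0.336 and 0.398. Stk39 had 10 shared regions, or 3.31 per 100 kb, more than 41.2% of genes.

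Oxsr1, the gene of OSR1, had the tallest 5' end of the 8. The peak at -0.42 kb (chr9:119322701-119323000) reached 26.8 in replicate 1 and 25.1 in replicate 2, above 99.7% and 99.6% of the peaks of each library. All 6 footprints of replicate 1 in it were matched in replicate 2. A lower peak over the start itself (chr9:119322341-119322540) reached 7.76 and 5.45, with 3 matched footprints. Inside the gene, a region at +75.4 kb over coding exon 13 reached 6.54 and 4.14, and 1 in intron 4 at +45.9 kb reached 5.73 and 3.91. At -12.1 kb the heights were 2.53 and 1.73. Near the edge of the window, at -18.8 kb, a region of 20.7 and 18.9 overlapped a start of Acaa1a, a gene of peroxisomal fatty acid oxidation. Oxsr1 and Stk39 encode kinases of the same family, yet the 5' height of Oxsr1 was above that of Stk39 by more than the gap between libraries.

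Klhl3, the adaptor that recognises WNK kinases, was the member without a 5' peak in both libraries. In replicate 1 the peak in the first exon (chr13:58113361-58113540) reached 1.34. Replicate 2 had a height of 0.540 in its wider set there, with a lowest false discovery rate of 0.00135. By contrast Klhl3 held 13 of the 38 distal regions of the set. Intron 4 carried 5 of them between +45.7 and +48.2 kb. The tallest (chr13:58067681-58068040) reached 11.4 in replicate 1 and 8.14 in replicate 2, above 96.1% and 93.1% of peaks, and all 5 of its footprints in replicate 1 were matched. The one at +48.2 kb reached 5.47 and 3.19, and upstream of the gene at -10.0 kb the heights were 5.10 and 3.43. The regions at the far upstream edge, of 13.8 and 11.9 and of 8.26 and 5.09, lay at starts of the neighbour Hnrnpa0, which encodes an RNA-binding protein. Klhl3 had 16 shared regions, the most of the 8 genes, or 10.4 per 100 kb.

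Cul3, the scaffold of the ligase, had shared regions at its 5' end alone. The peak at -0.53 kb (chr1:80340841-80341180) reached 10.4 in replicate 1 and 9.18 in replicate 2, with 6 matched footprints. The other region, over coding exon 1 at +0.17 kb, reached 3.18 and 1.92. No further shared region was found in the gene of 75.6 kb or its flanks, and Cul3 had no distal region. Its density of 1.73 per 100 kb was above that of 28.2% of genes.

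**Figure D4:**
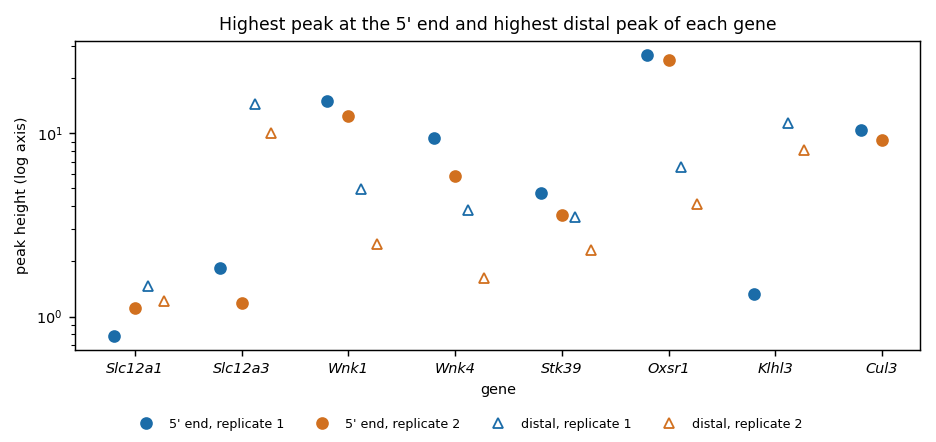
Height of the highest peak at the 5' end (filled circles) and of the highest distal region (open triangles) of each gene, on a log axis in the authors' scale, with replicate 1 in blue and replicate 2 in orange. The distal region is above the 5' end in both libraries in Slc12a1, Slc12a3 and, in replicate 1 (the library with a 5' peak), Klhl3, and below it in the other genes with a distal region.

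Ordered by 5' height, the genes ran Oxsr1, Wnk1, Cul3, Wnk4, Stk39, Slc12a3 and then Klhl3 and Slc12a1 in replicate 1, and in replicate 2 the order was the same, without Klhl3. Cul3 and Wnk4 were neighbours whose heights overlapped between libraries, though Cul3 was the higher within each, at 10.4 against 9.36 and 9.18 against 5.85. Klhl3 had a height in the stricter set in replicate 1 alone, where it stood above Slc12a1, at 1.34 against 0.789. In the wider set of replicate 2 it stood below Slc12a1, at 0.540 against 1.12, so their order differed between libraries. Slc12a3, at 1.84 and 1.19, was above Klhl3 in each. The highest distal region was above the 5' end in both libraries in Slc12a1 and Slc12a3, the cotransporter genes. In Klhl3 it was so too, at 11.4 against 1.34 in replicate 1 and 8.14 against 0.540, from the wider peak set, in replicate 2. In Slc12a1 the excess was small, 1.48 against 0.789 and 1.21 against 1.12. In Slc12a3 it was 14.5 against 1.84 and 10.0 against 1.19.

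The base composition of the promoters, which played no part in the choice of genes, divided the genes in a like way. In the RefSeq promoter table of GRCm38.p6, with 250 bases before and 50 after each start, all 8 genes matched 1 entry. Slc12a3 had 4 CpG dinucleotides, Slc12a1 had 5 and Klhl3 had 8, near the median of 7 over the 32851 promoters of the table. Wnk4 had 21, Oxsr1 24, Cul3 29, Wnk1 32 and Stk39 49, the last above 99.0% of promoters. The 3 genes with the fewest CpG had the lowest 5' heights, up to 1.84 in replicate 1, and the other 5 ranged from 4.75 to 26.8. Within the latter 5 the order differed, since Stk39 had the most CpG and the lowest height. The CpG count and the height did not always cover the same stretch, since the height was the highest within 1 kb of the start. In Oxsr1, Cul3 and Wnk4 the peak used lay 274, 361 and 427 bp from the nearest annotated start. The peaks over the start in these genes reached 7.76, 3.18 and 3.76 in replicate 1. The relation over all promoters was not tested.

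Footprints in the 8 windows numbered 402 in replicate 1 and 283 in replicate 2. Of those of replicate 1, 158 (39.3%) were matched in replicate 2 over at least 50% of the shorter footprint, beside 33.8% over the whole genome. Matched footprints lay in 55 of the 69 shared regions, and the like share over all shared regions is not given here. Known motifs of 19 kinds were searched on both strands in the 200 bases around the middle of each region. This gave 45 matches in 33 regions, 10 of the matches wholly inside footprints of both libraries. Over all shared regions the share of matches so placed depended on the motif, from 0.741% (POU) to 79.8% (NRF1). Both 5' peaks of Oxsr1 held the CREB palindrome TGACGTCA inside footprints of both libraries, seen within the capitals of the printed sequences, and no other motif searched overlapped it. TGACGTCA occurred in 2 of the 69 member regions (2.90%) and in 1.11% of the 65134 shared regions. Over all regions 62.8% of its matches lay inside footprints of both libraries. The Cul3 peak held the E-box CACGTG and the SP/KLF motif GGGGCGGGG (as CCCCGCCCC on the printed strand) inside footprints of both libraries. The E-box was in 4 of the 69 member regions (5.80%) and in 6.56% of all shared regions. The SP/KLF motif was in 1 of the 69 (1.45%) and in 6.03% of all. The tallest Klhl3 region held TGACNNNGC, the core of the antioxidant response element, as TGACCACGC in the capitals. Another match of it there, GCCTGGTCA on the printed strand, was not wholly inside a footprint of either library. Over all shared regions 8.13% of the matches of TGACNNNGC lay inside footprints of both libraries. That motif was in 4 of the 69 member regions (5.80%) and in 11.5% of all regions. The tallest Slc12a3 site held CCAATNNG, the NFY motif, inside footprints of both libraries, a motif in 7 of the 69 member regions (10.1%) and in 8.21% of all. The ESRR motif TCAAGGTCA occurred once, in the Slc12a3 region at +33.6 kb (4.68 and 2.46) and outside footprints, and was in 0.559% of all regions. A match describes the letters of the reference and says nothing of whether the factor was bound.

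The other genes of the pathway, from 5 lists, had a peak in both libraries near an annotated start (within 1 kb) in 25 of 29 cases, beside 60.7% of all genes. Among the other cation chloride cotransporters it was 6 of 7. Slc12a9 (12.9 and 6.87) and Slc12a7 (11.4 and 7.62) were highest, and Slc12a8 had none. Among the other WNK kinases and scaffolds it was 2 of 4. The scaffold genes Cab39l (13.2 and 8.77) and Cab39 (3.91 and 2.20), whose products activate SPAK and OSR1, had peaks. Wnk2 had one in replicate 1 alone (1.70), and Wnk3 had none. All 6 partners of the ubiquitin ligases did, led by Cand1 (19.8 and 14.5), Rbx1 (16.0 and 13.7) and Nedd8 (12.1 and 9.47). Of the 6 hormone and phosphatase regulators 5 did, with Nr3c2, the mineralocorticoid receptor, at 23.6 and 19.7, Sgk1 at 16.0 and 10.2 and Sorl1 at 2.81 and 1.21. Casr, the calcium-sensing receptor, had none. All 6 channels that act with the cotransporters did, with Kcnj16 at 8.41 and 6.18, Kcnj1 at 3.47 and 4.58 and Kcnj10 at 3.36 and 3.09. At the outermost 5' start the count over all lists was 21 of 29, beside 55.9% of all genes. Sgk1, for one, had no peak at its outermost start and a tall one at an internal start, and in Nr3c2 the outermost start stood at 2.45 and 1.48.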

How the data were processed

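DNase-seq of female mouse kidney at 36 days was analysed from the files of 2 libraries, which the authors made separately from filtered mm10 alignments, per the deposited descriptions. The aligner and peak caller are not stated in the labels or descriptions. The deposited peak signal (height) is a whole multiple of 1 step per library, on an unstated scale. The deposited false discovery rates (q-values) lie below 0.05, and the deposited footprints carry the p-value threshold 0.01 in every row. The stricter of the 2 deposited peak sets was used; in the member windows each of its peaks reached a rate of 0.001 or lower.

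Genes and start sites came from GENCODE M21. Peaks sharing at least 1 base between libraries formed a shared region, with the highest peak of each library as its height. Internal starts lay over 1 kb inside the outermost start, were merged within 500 bp and took peaks within 500 bp. Footprints matched over at least 50% of the shorter. Positions in kb from the 5' start were taken at the middle of a region, and percentiles over the peaks of 1 library. Gaps between a peak or region and a start, and the classes of regions, were taken from the nearer edge. Up to 3 distal regions per gene were named by mean height; list genes were named by the 3 highest promoters and all without a peak in both libraries, of which 1 gene is not reported here. Printed sequences avoid annotated UTRs beyond 30 bases, for which the window of the Oxsr1 start peak was moved by 68 bases. They come from the C57BL/6J reference; CAST/EiJ alleles were not analysed here. The interval steps were tested on simulated data. Members, lists and motifs were chosen with earlier results of these data known. Python 3.11.15, numpy 2.4.6 and matplotlib 3.10.9 were used. The alternatives were other start windows, flanks, overlap rules and peak sets, coding starts alone, the stronger 50% of peaks, and each replicate left out.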

Additional observations from a re-analysis of the deposited data

How the results depend on the processing

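The counts of members with a peak at any start (6 to 8) and at the 5' end (5 to 8) stayed within 1.5 times the reported 7 under every alternative tried. The 69 shared regions became 40 in the gene bodies alone, 107 with flanks of 50 kb, and 74 to 114 peaks with 1 replicate left out; without regions at starts of other genes, an alternative chosen after seeing the data, they were 55. The matched footprints, 158, became 9 when start and end had to be identical, 60 in the gene bodies alone, and 283 to 402 footprints with a replicate left out, when all of the other library count. Internal starts with a peak, 3, became 5 with a reach of 1 kb and 1 among coding transcripts, and 3 to 4 with a replicate left out. The distal share, 55.1%, was 40.6% beyond 2500 bp, 60.2% in the wider peak set and 55.4% to 60.5% with a replicate left out. The median log2 ratio of replicate 2 to replicate 1, -0.53, turned to 0.21 when heights were divided by the median of each library's shared regions; the cause was not tested. Read depth is not known, and replicate 2 held fewer peaks, so a region seen in replicate 1 alone may not have been detectable in replicate 2. No paired analysis was possible because there was 1 group.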
